A study of Arabidopsis thaliana with 6 samples.

Results

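Transcript levels of 4 marker genes of the Arabidopsis root were followed on 6 Affymetrix arrays. The genes were the cortex markers PEP (AT1G09750) and CO2 (AT1G62500), the ground tissue factor JKD (JACKDAW, AT5G03150) and the root cap polygalacturonase RCPG (AT1G65570). They were chosen by locus and symbol, as genes with a probe set mapped to them alone. Each had 1 such probe set, which gave 4 members among 22746 tested probe sets, of which 13513 named a single gene. All 4 had a value on all 6 arrays. The names PEP, CO2 and RCPG are those in common use for these loci, and the annotation tables used here list these 3 by locus only.

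The series asks which transcripts characterise dividing plant cells, those at G2/M. All plants were of accession Col-0, grown on vertical plates with sucrose. The sorted group (3 arrays) held G2/M cells. They were isolated from CYCB1;1-GFP roots, in which a mitotic cyclin reporter fluoresces, by a cell sorter (FACS). The comparison group (3 arrays) held complete root meristems cut out under a binocular microscope, and the labels name no reporter for it. The reporter marks a stage of the cycle and not a tissue layer. The groups differed in handling, sorting against dissection, as well as in the cells they held, and the labels do not say which plants or plates each replicate came from.

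The root is built of concentric layers. Cortex and endodermis together form the ground tissue, which lies between the epidermis and the central stele. Both layers come from the same stem cell through an asymmetric division controlled by the transcription factors SHORT-ROOT and SCARECROW. JKD is a zinc finger protein of the INDETERMINATE DOMAIN (IDD) family that acts with these factors, limits the spread of SHORT-ROOT and maintains ground tissue fate. The promoters of CO2 and PEP are widely used to mark the cortex, that of CO2 in the meristematic zone and that of PEP in older cortex of the elongation and maturation zones. CO2 encodes a proline-rich protein with a lipid transfer protein-like domain, and PEP an aspartyl protease-like protein. RCPG encodes a pectin-degrading enzyme of the outermost root cap, where layers of cells detach from the root tip. It is a known target of the NAC factors BRN1 and BRN2.

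Array values are the authors' GCRMA expression values on the log2 scale, so that a difference of 1 is a doubling. The lowest value in the table, 2.27, is taken here as the floor, and 28.2% of all tested values stood there. Correlations between arrays (Pearson's r across probe sets) were 0.996 to 0.997 among the meristems and 0.967 to 0.989 among the sorted samples. Sorted replicates 1 and 2 stood apart from each other on the second principal component, which held 22.4% of the variance (scores of 50.7 and -50.6), while sorted replicate 3 lay between them. Bacterial poly-A spike-in probe sets averaged 5.81 log2 in sorted replicate 1 and 6.24 to 7.27 in the meristems, against 3.13 and 2.97 in sorted replicates 2 and 3. The 5 genes of mitosis examined in the sorted group (AUR1, AUR2, AUR3, BUBR1 and SCL28) were all higher there, by 1.86 to 2.73 log2 (limma adjusted p between 0.00338 and 0.0226, and between 0.0539 and 0.130 with the replicate number as a block). Of all tested probe sets 4.44% were higher there at a limma adjusted p under 0.05. These 5 genes were picked with earlier results of these data known, so they are no independent check of the sort. Replicates are called biological by the series.

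All 4 markers were lower in the sorted cells than in the meristems. PEP differed most, then RCPG and JKD, while CO2 differed by less than 1 log2 unit. In each gene the highest sorted array lay below the lowest meristem array. Among all tested probe sets 30.7% had groups that did not overlap, 16.3% with the sorted arrays lower. Called lower were 7.06%, and called higher 4.44%. A call means an adjusted p under 0.05 in limma's moderated test, with Benjamini-Hochberg adjustment over all 22746 probe sets. In bulk samples, fewer cells of a type and less RNA per cell cannot be told apart.

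**Figure D1:**
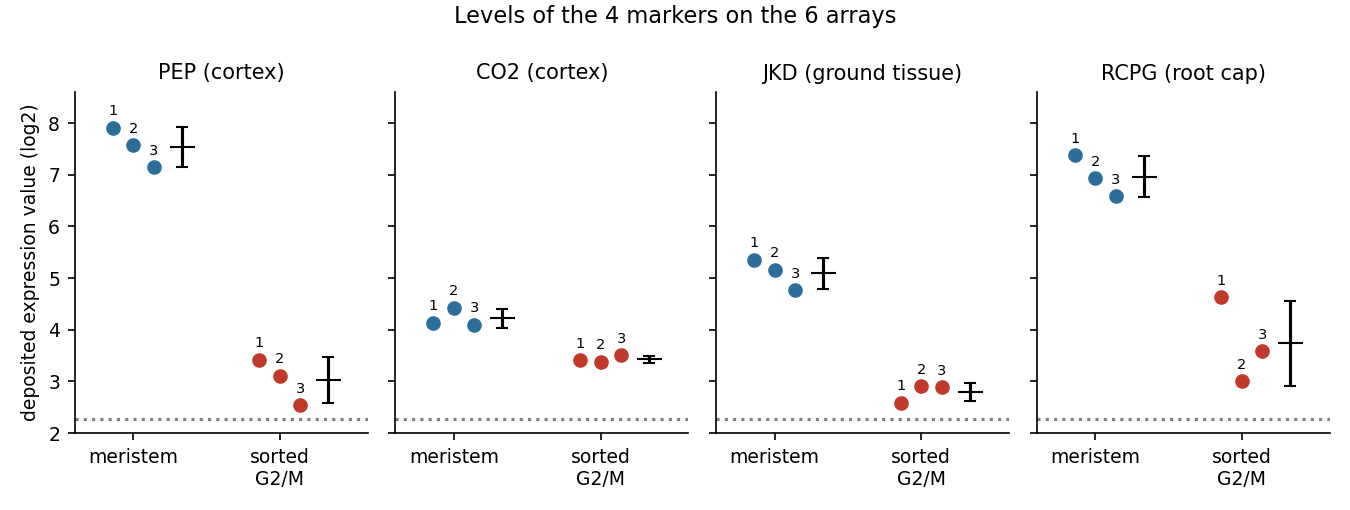
Deposited log2 expression values of PEP, CO2, JKD and RCPG in 3 meristem arrays (blue) and 3 sorted G2/M arrays (red), numbered by replicate, with the mean and SD of each group in black and the lowest value of the table (2.27) as a dotted line. Sorted and meristem points do not overlap in any of the 4 panels, and the distance between them is widest for PEP and narrowest for CO2.

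PEP, the marker of older cortex, stood at 7.91, 7.57 and 7.14 log2 in meristem replicates 1, 2 and 3. In the sorted cells it stood at 3.42, 3.11 and 2.54. The groups were separated by 3.72 log2 between their nearest arrays, and sorted replicate 3 came within 0.5 of the floor. The means were 7.54 ± 0.39 in the meristems and 3.02 ± 0.45 in the sorted cells (SD, n = 3 each). PEP thus fell by 4.52 log2 (SE 0.33, 95% confidence interval -5.39 to -3.64, limma adjusted p = 0.00512), a fold of 22.9. With the replicate number as a block, the fit in which each sorted sample is set against the meristem of its number, the adjusted p was 0.0263. Within the pairs the differences were -4.49, -4.46 and -4.60. PEP had the 22nd most negative difference of the 22746 probe sets.

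CO2, the marker of young cortex, stood at 4.14, 4.43 and 4.10 log2 in the meristems. It stood at 3.41, 3.38 and 3.51 in the sorted cells. The sorted arrays were nearly level with each other and the nearest arrays of the groups were 0.59 apart. The means were 4.22 ± 0.18 and 3.43 ± 0.07 (SD, n = 3 each). CO2 fell by 0.79 log2 (SE 0.11, 95% confidence interval -1.07 to -0.51, limma adjusted p = 0.0191), a fold of 1.73. This call did not hold with the replicate block (adjusted p = 0.129), with a trended robust prior (0.0860), with weights for the unequal spread of the groups (0.0600) or with the spike-in split as a block (0.0781), a fit that sets sorted replicate 1 alone against the meristems. It was also lost without sorted replicate 2 (0.0652), sorted replicate 3 (0.0709), meristem replicate 1 (0.0706) or meristem replicate 3 (0.0555). CO2 ranked 1462 from the most negative difference.

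JKD, the ground tissue factor, stood at 5.35, 5.16 and 4.76 log2 in the meristems. In the sorted cells it stood at 2.59, 2.91 and 2.89. Sorted replicate 1, the lowest of the 6 arrays, was within 0.5 of the floor, and the groups were 1.85 apart at their nearest. The means were 5.09 ± 0.30 and 2.80 ± 0.18 (SD, n = 3 each). JKD fell by 2.29 log2 (SE 0.19, 95% confidence interval -2.81 to -1.78, limma adjusted p = 0.00687), a fold of 4.90 and rank 252. The replicate block ended this call (adjusted p = 0.0881). Its paired differences were -2.76, -2.25 and -1.87. Leaving out any 1 array kept the call, with adjusted p between 0.0184 and 0.0445.

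RCPG, the root cap enzyme, stood at 7.38, 6.93 and 6.58 log2 in the meristems. It stood at 4.63, 3.00 and 3.58 in the sorted cells. Its sorted arrays spread over 1.63 log2, the widest of the 4 markers, with replicate 1 the highest and replicate 2 the lowest, the same order as on the second principal component. The means were 6.96 ± 0.40 and 3.74 ± 0.83 (SD, n = 3 each). RCPG fell by 3.23 log2 (SE 0.51, 95% confidence interval -4.58 to -1.87, limma adjusted p = 0.0280), a fold of 9.36 and rank 95. The call was lost with the replicate block (adjusted p = 0.0877) and with the spike-in block, where the difference of sorted replicate 1 alone from the meristems was -2.33 (adjusted p = 0.0631, with the spread of that lone array taken from the other groups). It was also lost without sorted replicate 2 (0.0583) or 3 (0.112) and without meristem replicate 1 (0.108), 2 (0.114) or 3 (0.0861). Without sorted replicate 1 the difference was -3.67 and the call held (adjusted p = 0.0194).

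Sorted replicate 1 was the only sorted array with spike-in signal like that of the meristems, so its distance from the meristem mean compares arrays that share this feature. That distance was -4.12 log2 for PEP, -0.81 for CO2, -2.50 for JKD and -2.33 for RCPG. In sorted replicate 2 it was -4.43 for PEP, -0.84 for CO2, -2.18 for JKD and -3.96 for RCPG. In sorted replicate 3 it was -5.00 for PEP, -0.71 for CO2, -2.20 for JKD and -3.38 for RCPG. All 12 distances were negative. The values of sorted replicate 1 are also the estimates of the fit with the spike-in block, which therefore rests on 1 sorted array. The part of the spike-in split in these results was not tested.

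**Figure D2:**
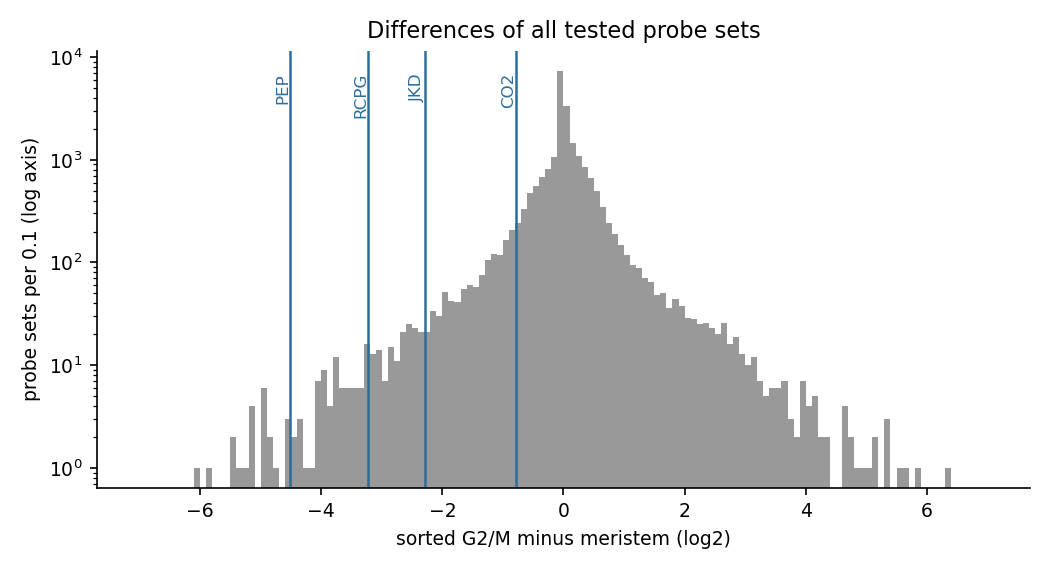
Histogram of the difference between groups (sorted G2/M minus meristem, log2) over the 22746 tested probe sets, in bins of 0.1 on a logarithmic count axis, with the 4 markers as blue lines. PEP, RCPG and JKD lie in the left tail, where 1.48% of all probe sets had a difference of -2 or less. CO2, at -0.79 log2, lies outside that tail.

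The sizes of change were compared between the markers, pair by pair. PEP fell by 3.73 log2 more than CO2, by 2.22 more than JKD and by 1.29 more than RCPG. The comparison used the within-array difference of each pair in an exact two-sided permutation test over the 6 arrays, for 6 pairs. The smallest p that 3 against 3 arrays allow is 0.10, so no pair could reach 0.05. The floor also limits the comparison. The meristem mean lay 1.95 log2 above the floor for CO2, 2.82 for JKD, 4.69 for RCPG and 5.27 for PEP, so CO2 and JKD could not have fallen as far as PEP did. The minimum p was reached for every pair but JKD and RCPG, whose change differed by 0.93 log2 (exact p = 0.40). The adjusted exact p was 0.12 for the other 5 pairs. The confidence intervals of PEP (-5.39 to -3.64) and CO2 (-1.07 to -0.51) did not touch. CO2 had only 1.95 log2 to fall, though its sorted mean still lay 1.16 above the floor. Setting these intervals side by side is no test of unequal change.

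In the meristems, replicate 3 was the lowest of its group for each of the 4 markers. PEP, JKD and RCPG lay 0.40, 0.33 and 0.38 log2 below their group mean there, and CO2 lay 0.12 below. Replicate 1 was the highest meristem for PEP, JKD and RCPG, and replicate 2 for CO2. Among the sorted arrays the markers did not share an order. Replicate 1 was the highest for PEP and RCPG and the lowest for JKD.

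**Figure D3:**
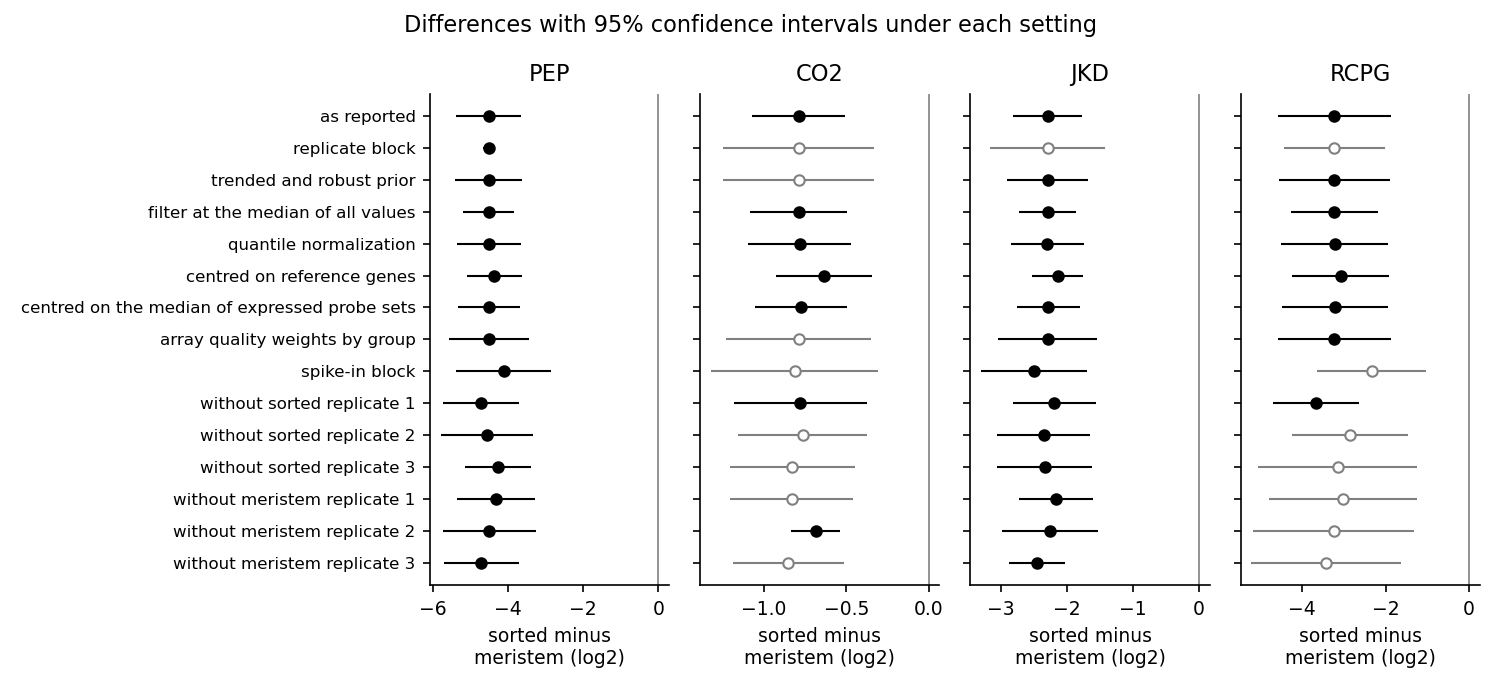
Difference of each marker (sorted G2/M minus meristem, log2, points) with its 95% confidence interval (lines) as reported and under 14 other settings, filled black where the limma adjusted p was under 0.05 and open grey otherwise. Every interval lies below 0; PEP is filled throughout, JKD is open with the replicate block, and CO2 and RCPG are open under several settings.

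Genes that work in the same tissues were then read from the same fit. The lists were written from general knowledge, with earlier results of these data known, so their counts are a description and no independent support. Most of their entries had no probe set mapped to them alone in the tables used here. Across 10 lists, 100 of 218 entries were measured, which made 98 genes. In all 15 of these 98 genes were called, 1 of them higher in the sorted cells. Of all tested probe sets 11.5% were called in either direction.

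Of 17 listed root cap genes, which act in cap identity, cell detachment and cell death, 5 were measured, and 3 fell, against 7.06% of all probe sets called lower. The median difference of the 5 was -2.62 log2, beside a median of 0.00 over all tested probe sets. The 3 genes that fell are known from the final stages of the lateral root cap. PASPA3 (AT4G04460), an aspartyl protease that marks cells preparing for programmed death, stood at 7.12, 7.55 and 6.35 in the meristems and 3.03, 2.74 and 3.02 in the sorted cells. It fell by 4.08 log2 (SE 0.35, limma adjusted p = 0.00705), or 16.9-fold. EXI1 (AT2G14095), also a marker of developmental cell death, went from 5.47 ± 0.18 to 2.45 ± 0.00 (SD, n = 3 each), identical on the 3 sorted arrays and within 0.5 of the floor. Its difference of -3.02 log2 (SE 0.10, adjusted p = 0.00161) is measured from a background level and is a lower bound on the size of its fall. The lack of spread among its sorted arrays narrows that SE. SCPL48, a serine carboxypeptidase-like gene of the same group, fell by 2.62 log2 (SE 0.34, adjusted p = 0.0173). DMP4, listed for the same process, was near the floor on all arrays. The receptor kinase gene ACR4, which acts in the stem cells and young layers of the cap, was not called (0.26 log2, adjusted p = 0.370). With the replicate block only EXI1 of the 5 was called (adjusted p = 0.0445), while PASPA3 had 0.0846 and SCPL48 0.132. The call of SCPL48 needed sorted replicates 2 and 3 and meristem replicate 1. The summed log2 level of the list was 15.3 to 15.7 in the sorted arrays and 23.8 to 26.4 in the meristems.

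The family of RCPG, polygalacturonases that cut the pectin backbone, was near the floor in most of its measured members. Of 50 listed genes 32 were measured, and 20 of these were within 0.5 of the floor on all arrays. Of the 32, 3 fell (9.38%, against 7.06% of all probe sets) and none rose. AT3G62110 fell by 1.18 log2 (SE 0.11, limma adjusted p = 0.00780), and AT1G19170 fell by 0.70 log2 (SE 0.09, adjusted p = 0.0172). AT1G10640 fell by 0.25 log2 (SE 0.01, adjusted p = 0.00274), from 2.52 to 2.27, both near the floor. Its 3 sorted arrays all stood at the floor, and this lack of spread narrows that SE. Larger differences were found in AT2G43880 (-2.84 log2, SE 1.12, adjusted p = 0.222) and AT2G43890 (-1.72 log2, SE 1.31, adjusted p = 0.562), which were not called. AT2G43880 stood at 7.08, 3.57 and 7.07 in sorted replicates 1, 2 and 3 and at 8.93, 8.64 and 8.67 in the meristems, so 1 sorted array lay far below the others. None of the family was called by limma with the replicate block, where 5 had an unadjusted p under 0.05, and the call of AT1G19170 needed sorted replicate 3 and each meristem.

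**Figure D4:**
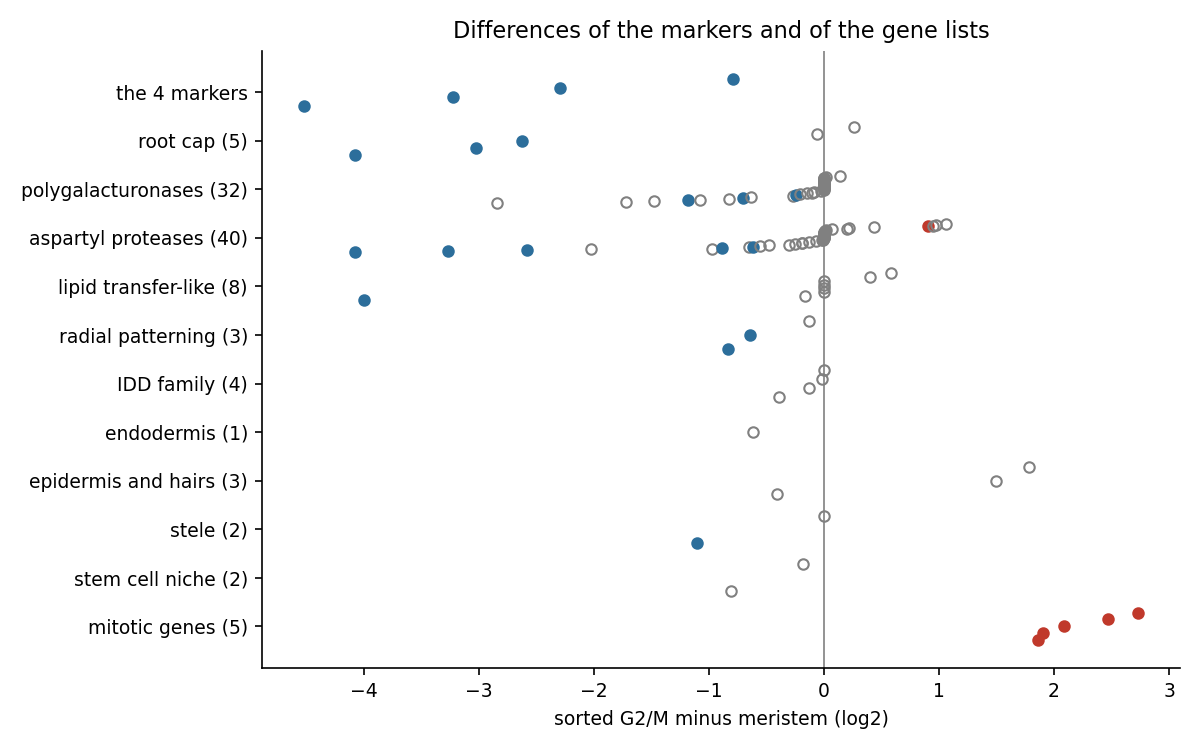
Differences (sorted G2/M minus meristem, log2) of the 4 markers and of the measured genes in each list, the number of genes in brackets, with blue points called lower, red points called higher and open points not called. Blue points beyond -2 appear among the markers, root cap genes, aspartyl proteases and the lipid transfer-like family, while many genes of the large families overlap at 0.

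The aspartyl proteases, the family of PEP, moved in both directions. Of 50 listed genes 40 were measured, 16 of them near the floor on all arrays, and 5 fell (12.5%) while 1 rose. Over all probe sets 7.06% were called lower and 4.44% higher. Besides PASPA3, which belongs to this family too, AT3G54400 fell from 10.49 ± 0.12 to 7.22 ± 0.58 (SD, n = 3 each), by 3.27 log2 (SE 0.33, limma adjusted p = 0.00987). AT3G61820 fell by 2.58 log2 (SE 0.14, adjusted p = 0.00324) and remained called with the replicate block (0.0449). AT1G08210 rose by 0.90 log2 (SE 0.15, adjusted p = 0.0344) and was not called with the block (0.0751). AT3G54400 was not called with the block (0.0835) or without any 1 of the meristems (adjusted p up to 0.0553). With 1 array left out at a time, AT1G08210 was called only without sorted replicate 2. The median difference was 0.00 over the 40 and -0.22 over the 24 that were not near the floor on all arrays. It was 0.00 over all probe sets and 0.02 over those above the median level.

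In the lipid transfer protein-like family of CO2 most measured members were near the floor. Of 21 listed genes 8 were measured and 5 of them were near the floor on all arrays. AT2G45180 was the single call, 1 of 8, against 7.06% of all probe sets called lower. It stood at 9.24, 8.11 and 8.59 in the meristems and at 5.47, 3.67 and 4.82 in the sorted cells. It fell by 3.99 log2 (SE 0.59, limma adjusted p = 0.0242), or 15.9-fold, and its sorted arrays ran in the order seen for RCPG. The call was lost with the replicate block (0.0569), without sorted replicate 3 and without any 1 meristem. AT1G62510, the gene beside CO2 on the chromosome and a relative of it, was at the floor on every array but sorted replicate 1 (3.47).

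Genes around JKD were measured at low levels. SHORT-ROOT and SCARECROW were not analysed here, and of the IDD relatives of JKD only the 4 given below were. Of 12 genes of radial patterning 3 were measured and 2 fell, against 7.06% of all probe sets called lower. PHV, a class III homeodomain-leucine zipper gene that acts in the inner layers, was 3.41 ± 0.07 in the meristems and 2.57 ± 0.21 after sorting (SD, n = 3 each). It fell by 0.84 log2 (SE 0.12, limma adjusted p = 0.0233). SCL23, a GRAS-family relative of SCARECROW, fell by 0.64 log2 (SE 0.10, adjusted p = 0.0292). Its sorted arrays were nearly identical, at 2.83, 2.84 and 2.84, which narrows that SE. Neither PHV nor SCL23 was called with the replicate block (0.144 and 0.129) or with a trended robust prior. The call of PHV needed sorted replicate 3 and each meristem, and that of SCL23 every array but meristem replicate 2. Of the 15 listed IDD relatives of JKD 4 were measured and none was called in limma, with 1 of the 4 at an unadjusted p under 0.05. IDD6 (-0.02 log2), IDD13 (0.00) and BIB (-0.13) were near the floor on all arrays, so a fall could not show there. BIB acts with JKD in ground tissue boundaries. IDD16 had the largest difference (-0.39 log2, adjusted p = 0.151).

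Markers of other layers were few. SGN3, the receptor kinase that guards the endodermal barrier, was the 1 endodermis gene of 13 with a value and was not called (-0.62 log2, SE 0.27, adjusted p = 0.261). In the stele LHW, a transcription factor gene of vascular cell divisions, fell by 1.10 log2 (SE 0.13, limma adjusted p = 0.0149; 0.116 with the replicate block), and PEAR2, the other of 2 measured genes, was at the floor. Sorted replicate 3 and each meristem were needed for the call of LHW. The stem cell niche genes BBM (-0.81 log2, adjusted p = 0.194) and AGL42 (-0.18 log2, adjusted p = 0.560) were not called. Of 3 measured genes of the epidermis limma called none, and 0 had an unadjusted p under 0.05. QKY, a patterning gene, differed by -0.41 log2 (adjusted p = 0.324). The root hair expansins EXPA7 and EXPA18 stood at 7.07 and 6.67 in sorted replicate 1. They were between 2.27 and 2.69 on all other arrays. Sorted replicate 1 was also the sorted array with the highest PEP and RCPG. It had the lowest JKD, and its CO2 lay between those of the other sorted arrays. The summed log2 level of the epidermis list was 10.8 to 19.1 in the sorted arrays and 10.7 to 10.8 in the meristems. The part of root hair cells in the marker levels was not tested.

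None of the genes beside the markers on the chromosome was called, where a probe set was assigned. Upstream and downstream are not distinguished here, and the 2 nearest protein-coding genes on each side were taken in RefSeq order (assembly TAIR10.1). Next to PEP, AT1G09740 (-0.10 log2, adjusted p = 1.00) and AT1G09730 (0.05 log2, adjusted p = 0.963) were not called. Next to RCPG, AT1G65560 (0.50 log2, adjusted p = 0.288) and FRA3 (-0.04 log2, adjusted p = 0.871) were not called. Near CO2, AT1G62480 stood at 11.41, 10.85 and 11.10 in the meristems and 8.56, 6.50 and 8.48 in the sorted cells, a difference of -3.27 log2 (SE 0.66) with an adjusted p of 0.0517, and AT1G62490 was at the floor on all arrays. Near JKD, AT5G03130 was near the floor (-0.12 log2, adjusted p = 0.613).

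Genes with the profile most like each marker were listed by the root mean square difference between the 6 values, after each gene's own mean was taken away, among 6527 named genes above the median level in either group. Because they were picked for this likeness over 6 arrays, their falls are a description and get no test. For PEP these were AT5G24070 (root mean square difference 0.32 log2), AT1G28400 (0.36), AT3G20160 (0.37), AT3G06460 (0.39) and AT3G49190 (0.42), with differences between groups of -5.14 to -4.05 log2. For CO2 they were AT4G01897 (0.058), AT1G19710 (0.066), AT3G14410 (0.074), AT5G11600 (0.079) and AT3G24760 (0.085), with differences of -0.83 to -0.70 log2. For JKD the closest was AT1G17430 (0.046), which stood at 6.90, 6.77 and 6.41 in the meristems and 4.20, 4.48 and 4.40 in the sorted cells with the arrays of each group in the same order as for JKD. The next were AT2G35750 (0.16), AT5G66590 (0.16), AT3G26760 (0.17) and AT4G01240 (0.19). For RCPG the closest was AT1G56300 (0.16), at 7.28, 7.17 and 6.60 in the meristems and 4.95, 3.32 and 3.72 in the sorted cells, followed by AT3G05150 (0.33), AT2G04800 (0.35), AT2G41810 (0.39) and AT3G61930 (0.40). The 4 sets of 5 genes had no gene in common, which the measure largely fixes because it also matches the size of the difference.

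**Figure D5:**
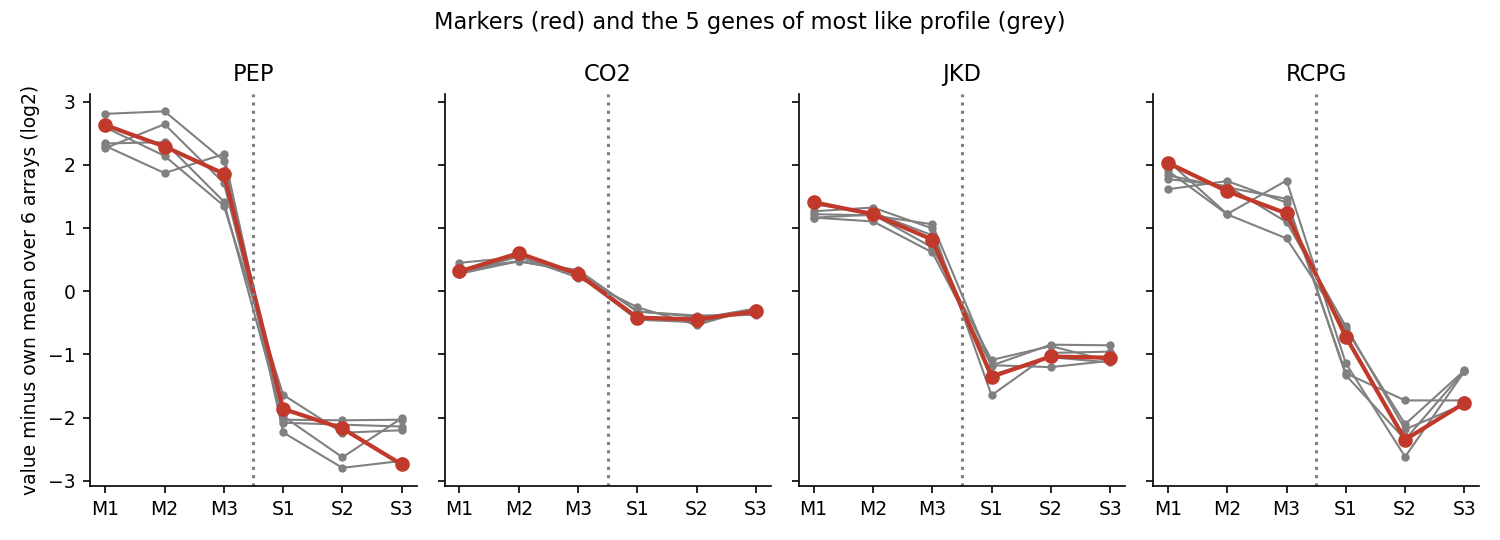
Profiles of each marker (red) and of the 5 named genes most like it (grey) over meristem replicates 1 to 3 (M1 to M3) and sorted replicates 1 to 3 (S1 to S3), as log2 value minus the gene's own mean over the 6 arrays. The closest profiles follow CO2 and JKD within 0.20 log2 root mean square, while those of PEP lie 0.32 to 0.42 from it.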

How the data were processed

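Affymetrix arrays of 3 sorted and 3 meristem RNA samples were used, 1 sample per array, grouped by their titles. The deposited table holds log2 values that the authors made with GCRMA, per the submitters' processing notes (version not given in the sources used here); GCRMA corrects background, normalizes across arrays and summarises probes. Arrays have no read depth, and their number limits precision. Of 22810 probe sets 64 controls were left out. A further 503 probe sets that name several genes and 8730 unnamed here were tested without a name, and 13436 of those naming 1 gene were matched to RefSeq (TAIR10.1, names and gene order only). The deposited log2 values were compared with limma 3.58.1 in R 4.3.3, with no filter, and the procedure was tested on simulated data.

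A gene with several probe sets was represented by the one of highest mean. The text names all 4 members, each measured gene of the tissue lists, from each family up to 4 called genes of largest change or the 2 of smallest p, and the 5 closest profiles; AT2G43880, AT2G43890, AT1G62510 and the neighbouring genes were added after their values were seen. Members and lists were chosen with earlier results of these data known. Same-numbered sorted and meristem samples deviated together weakly over 11503 expressed probe sets. The r of their deviations from the group means was 0.12, 0.25 and 0.11, against -0.23 to 0.050 for other numbers. Deviations from a group mean cancel out within the group, so these correlations depend on each other and do not establish pairing. The replicate number was therefore used as a block in a separate setting. The main fit, which gave the reported calls, left it out. Calls lost with the block depend on this choice. No gene or promoter sequence was used.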

Additional observations from a re-analysis of the deposited data

How the results depend on the processing

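The direction of all 4 differences was the same under the 14 settings tried, and PEP kept its call under each of them. With the replicate block the differences are unchanged by construction, and CO2 (-0.79 log2), JKD (-2.29) and RCPG (-3.23) lost their calls, leaving 1 of 4 members. Under the block 2 listed genes were called, both among the 15 reported, and 235 probe sets, of which 209 were among the 2614 reported. The spike-in block sets sorted replicate 1 alone against the meristems and assumes that this lone array varies like the others. Under it CO2 (-0.81) and RCPG (-2.33) were not called, which gave 2 members, and 23 listed genes were called, 10 of them among the 15. CO2 also lost its call with a trended robust prior and with 1 weight per group (both -0.79); per-array weights did not converge and are not given. The prior gave 1249 calls in all. Centring on 5 reference genes shifted expressed probe sets upwards (median 0.17 against 0.02 log2). It gave 13322 called probe sets (84.4% higher, against 38.6%) and 56 listed genes, with all 4 members still lower. UBC21, 1 of the 5, was itself lower in the sorted cells (-0.54 log2, limma adjusted p = 0.0220 in the main fit). The centring also moved values at the floor, so flat probe sets there took on a difference between groups. Its counts are therefore no measure of how many genes changed. The share called higher was 53.6% with the spike-in block and 51.8% without sorted replicate 1. Leaving out 1 array at a time gave -4.72 to -4.28 for PEP, -0.85 to -0.69 for CO2, -2.46 to -2.16 for JKD and -3.67 to -2.86 for RCPG, with 2 to 4 members, 6 to 15 listed genes and 959 to 3383 probe sets called. The differences between members kept their sign with quantile normalization. Values near the floor of 2.27, as for PEP and JKD in the sorted cells, limit how large a fall these arrays can show.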
